A study of Mus musculus with 7 samples.

Results

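The genes described here are 46 components of the extracellular matrix other than collagens: structural glycoproteins, proteoglycans, matricellular proteins and the lysyl oxidases that crosslink collagen and elastin. They were taken by gene symbol from a list fixed by name, and all 46 were found among the 24421 gene rows of the count table. Of these, 45 had enough reads to be tested, and Spp1 (osteopontin) did not, with 8, 6, 0 and 10 counts in FOG2 overexpression replicates 1 to 4 and 2, 3 and 2 counts in WT replicates 1 to 3. The tissue was left atrium, and the mice were adults of the outbred CD1 strain. There were 4 libraries with the genotype FOG2 Overexpression (OE) and 3 with the genotype WT. All animals had been kept off doxycycline for 1 week, and the protocol calls the animals DTG and NTG without spelling these out; the promoter that drives FOG2 is not given in the sources used here. FOG2 is encoded by Zfpm2 and is a zinc finger protein without strong DNA binding of its own that partners GATA factors such as GATA4. The series title links FOG2 to an atrial gene network of TBX5 and GATA4, to heart failure and to the risk of atrial fibrillation.

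The cardiac matrix is made mostly by fibroblasts, with contributions from endothelial and mural cells. Elastic fibres consist of an elastin core on a scaffold of fibrillin microfibrils, to which fibulins and latent TGF-beta binding proteins attach, so the scaffold also stores growth factor. Small leucine-rich proteoglycans coat collagen fibrils and set their spacing, lysyl oxidases make the covalent crosslinks that stiffen collagen and elastin, and matricellular proteins such as thrombospondins, tenascins, periostin and the CCN family act mainly as signals to cells. Atrial fibrosis, the accumulation of such matrix, is a known companion of atrial fibrillation.

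Promoters are shown for the genes, among those whose difference passed the test in either comparison below, whose promoters were searched and hold a match to a motif. Each spans 250 bases before to 50 bases after the RefSeq transcription start on GRCm38.p6, is written 5′ to 3′ along the gene's own strand, and has in capitals the word GGAATG of TEAD factors or its reverse complement. Cyr61 (now Ccn1) lies on the minus strand, chr3:145649936-145650235, and Ogn on the plus strand, chr13:49607765-49608064.
Cyr61: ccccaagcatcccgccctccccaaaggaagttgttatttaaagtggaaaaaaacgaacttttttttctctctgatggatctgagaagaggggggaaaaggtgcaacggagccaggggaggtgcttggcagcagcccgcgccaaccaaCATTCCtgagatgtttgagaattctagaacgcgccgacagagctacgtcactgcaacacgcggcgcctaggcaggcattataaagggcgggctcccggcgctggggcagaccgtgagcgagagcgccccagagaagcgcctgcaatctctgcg
Ogn: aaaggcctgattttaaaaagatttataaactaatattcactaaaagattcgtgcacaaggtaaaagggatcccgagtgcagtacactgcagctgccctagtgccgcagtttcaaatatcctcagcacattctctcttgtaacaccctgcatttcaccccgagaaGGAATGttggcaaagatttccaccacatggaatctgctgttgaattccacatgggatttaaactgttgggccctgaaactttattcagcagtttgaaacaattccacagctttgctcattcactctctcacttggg
The match begins 103 bases before the start in Cyr61 and 86 bases before it in Ogn. Both strands were also searched for the GATA words AGATAN and TGATAN with A or G as the last letter, the T-box word AGGTGT, the AP-1 word TGAGTCA or its reverse complement, and the CArG box, and no matches of different motifs overlapped. Among all 32851 promoters of this length, 14.7% held the TEAD word, 29.8% a GATA word, 13.7% the T-box word, 5.2% an AP-1 word and 1.63% a CArG box. The table held 39 promoters of 29 of the 46 genes, of which 4 held the TEAD word, 3 a GATA word, 2 the T-box word, 2 an AP-1 word and 0 a CArG box. None of the 5 motifs matched in the promoters of Fbn1, Vcan and Prelp or at the 2 starts of Ltbp1. Loxl3 and Fn1 were not searched.

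The 4 OE libraries held 5562520 to 8655655 reads counted to genes and the 3 WT libraries 7673309 to 8579443, so 1 read stood for 0.111 to 0.174 CPM, the read count scaled to a common library size. Zfpm2 checked the labels, with 140.1, 222, 262 and 246 CPM in OE replicates 1 to 4 against 31.7, 30.9 and 29.4 CPM in WT replicates 1 to 3 (log2 fold change 2.82 ± 0.22, SE, edgeR quasi-likelihood test, adjusted p = 2.05e-04). OE replicate 1 stood apart: across all genes tested it correlated with the other OE libraries at r = 0.954 to 0.956, while OE replicates 2, 3 and 4 correlated with one another at up to 0.986 and the WT libraries at 0.981 to 0.986. It and WT replicate 2 had 545 and 557 CPM of Y-linked transcripts over 4 genes and Xist under 1 CPM, whereas the others had 0 to 0.578 CPM of Y-linked transcripts and 819 to 1080 CPM of Xist; the labels give no sex. Results below are given for all 7 libraries and, as a second comparison, for the 6 libraries without OE replicate 1. The split was named in the plan of the comparison, which was made with earlier results of these data known. It is therefore not independent of these data. Among those 6, WT replicate 2 is the only library with high Y-linked transcripts, so the groups are less balanced in this respect.

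Most matrix genes were higher on average in OE atria, and few passed the test. With all 7 libraries, 40 of the 45 genes had a positive log2 fold change, against 53.2% of the 13295 genes tested, and the median was 0.43, against 0.02 for all genes. The crosslinking enzyme gene Loxl3 was the 1 gene that rose, where 1.55% of all genes were called higher at a Benjamini-Hochberg adjusted p under 0.05. None fell, where 3.29% of all genes were called lower. At an unadjusted p under 0.05, 16 genes were higher, against 9.14% of all genes, and 1 was lower, against 10% of all genes. DESeq2 called 6 genes higher and 0 lower, namely Cyr61, Fbn1, Hspg2, Lox, Loxl3 and Sparc. With library totals only, without further scaling, the counts were 3 and 0, and that scaling moved the median of all genes to 0.15 and that of the matrix genes to 0.55. Without WT replicate 1, 2 or 3, 0 matrix genes were called, and without OE replicate 2, 3 or 4 the 1 gene called was Cyr61 in place of Loxl3.

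Without OE replicate 1, 7 matrix genes rose and 1 fell. Those that rose were Cyr61, Ltbp1, Prelp, Loxl3, Fbn1, Vcan and Ogn, which is 7 of 45 genes tested where 3.74% of 13191 genes were called higher. The gene that fell was Fn1, fibronectin, where 4.99% of all genes were called lower. Their median log2 fold change was 0.37, against 0.01 for all genes, and 39 of 45 were positive, against 51.8%. The median standard error of the matrix genes was 0.168 log2 units without the library and 0.233 with it, and that of all genes 0.145 and 0.163. The counts rested on several libraries. On leaving out 1 library more, they were 4 higher and 1 lower without OE replicate 2, 4 and 0 without OE replicate 3, 1 and 0 without OE replicate 4, 1 and 0 without WT replicate 1, 2 and 0 without WT replicate 2, and 13 and 2 without WT replicate 3. Cyr61 was called in each of these 6 fits. With the Y-linked covariate in place of leaving out 1 library more, Cyr61 and Ltbp1 were called higher and 0 genes lower. WT replicate 2 alone carries that covariate in these 6 libraries, so this fit nearly repeats the fit without WT replicate 2.

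**Figure D1:**
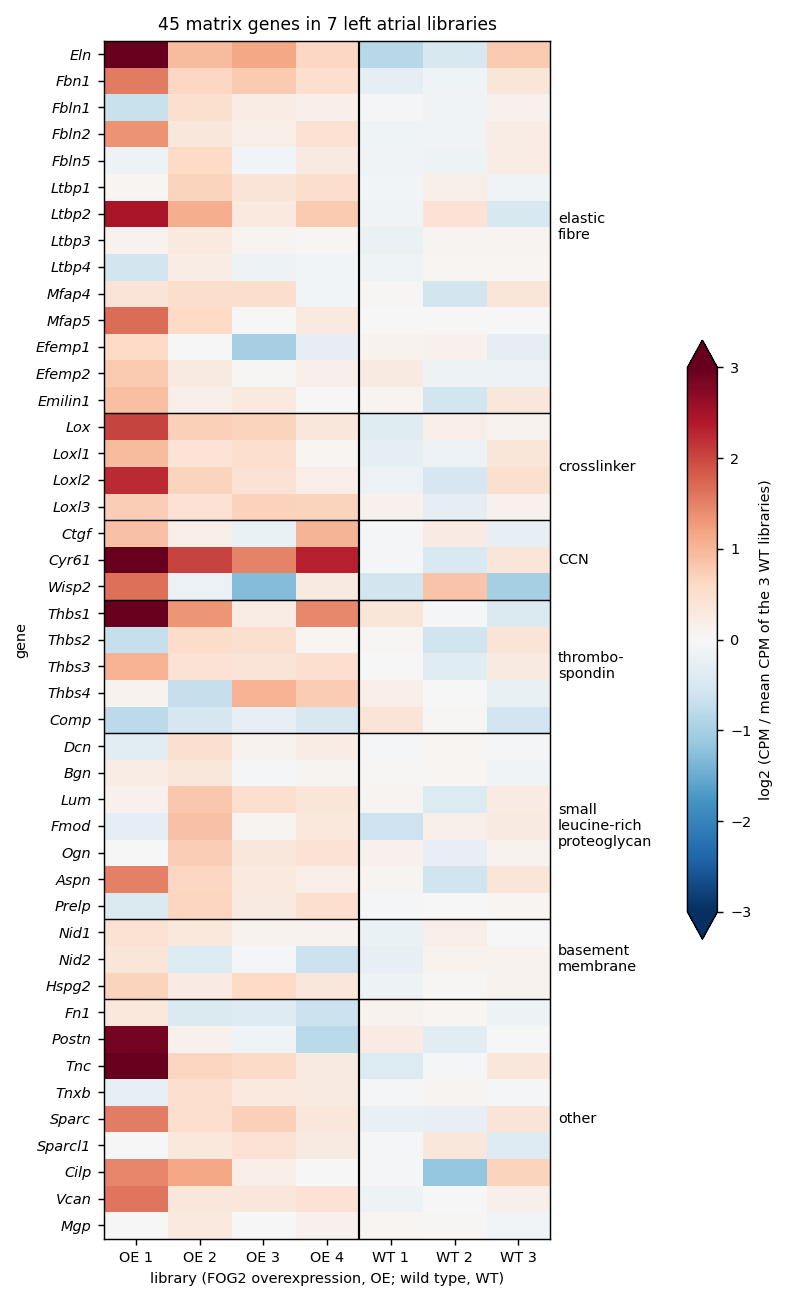
Colour gives log2 of the CPM of each of the 45 tested matrix genes (rows, grouped by class) over its mean in the 3 WT libraries, in 4 OE and 3 WT left atrial libraries (columns). OE 1 holds the deepest red cells (Eln, Cyr61, Thbs1, Tnc, Postn) together with pale blue ones in Fbln1, Thbs2 and Prelp, where OE 2 to 4 are at or above the WT mean.

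**Figure D2:**
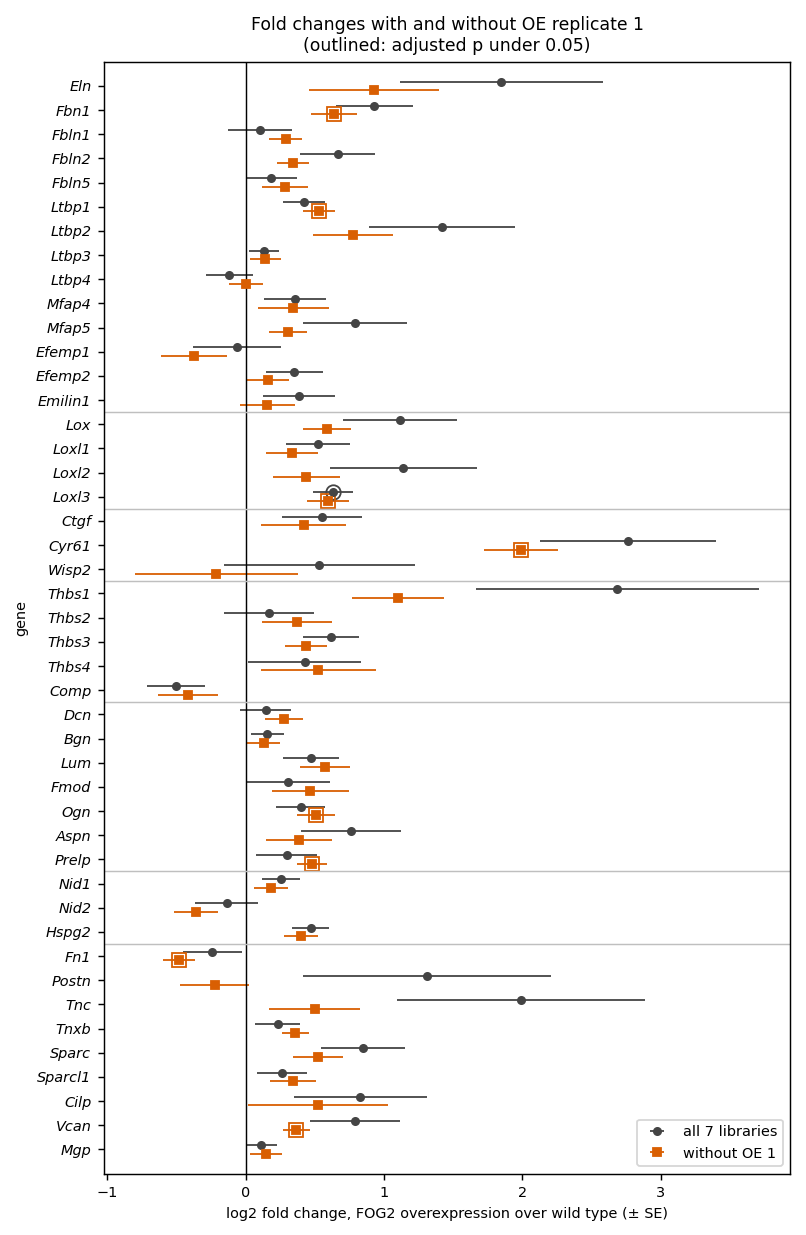
Points give the log2 fold change of OE over WT with its standard error for each tested matrix gene, with all 7 libraries (grey circles) and without OE replicate 1 (orange squares); outlined points have an adjusted p under 0.05. Loxl3 is outlined in both fits, 7 further genes only without OE replicate 1, and the bars of Thbs1, Tnc, Postn and Eln shorten when that library is left out.

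Groups were also compared without a model. In 7 of the 45 genes every OE library lay above every WT library, where 8.99% of all genes did so, and in 0 every OE library lay below, against 10.8%. These were Fbn1, Lox, Loxl3, Cyr61, Thbs3, Hspg2 and Vcan. Without OE replicate 1 this held for 14 of 45 genes, where 12.8% of all genes did so, and Fn1 was the 1 gene below, against 14.2%. Summed over the 46 genes, the level was 19121 CPM in OE replicate 1, 14739 to 16480.3 CPM in OE replicates 2 to 4, and 11903 to 12838 CPM in the WT libraries.

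All 4 crosslinking enzyme genes were higher on average in OE atria, where 53.2% of all genes were. OE replicate 1 was the highest of 7 libraries in all 4, against 26.4% of all genes. Loxl3 passed the test with and without OE replicate 1, where 1.55% and 3.74% of all genes were called higher. Loxl3 encodes a lysyl oxidase-like enzyme and lies on chromosome 6 from 83034173 to 83052562 of mm10, plus strand. It had 25.9, 21.1, 24.9 and 24.6 CPM in OE replicates 1 to 4 against 17.1, 12.6 and 16.9 CPM in WT replicates 1 to 3. Every OE library was above every WT library, and OE replicate 1 was close to the other OE libraries. The log2 fold change was 0.63 ± 0.15 (adjusted p = 0.0417), and 0.60 ± 0.15 without OE replicate 1 (adjusted p = 0.0339). With all 7 libraries as the start, the adjusted p of Loxl3 was 0.052 without OE replicate 2, 0.0927 without OE replicate 3, 0.0973 without OE replicate 4, 0.099 without WT replicate 1, 0.157 without WT replicate 2 and 0.0775 without WT replicate 3. Without OE replicate 1 and 1 further library, it was 0.108 for OE replicate 3, 0.126 for OE replicate 4, 0.0548 for WT replicate 1 and 0.0983 for WT replicate 2. With a Y-linked covariate instead, which WT replicate 2 alone carries here, it was 0.099. With the replicate block it was 0.0823 with all 7 libraries and 0.11 without OE replicate 1. Under 0.05 it stayed in 9 of 16 alternative fits with all libraries as the start, and in 9 of 15 without OE replicate 1. Of the exon bases of Loxl3, 11.6% are shared with Htra2 on the other strand. The strand setting of the counting is not given in the sources used here.

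Lox, the founding lysyl oxidase, had 63.5, 25.6, 24.9 and 19.8 CPM in OE replicates 1 to 4 against 12.04, 17.9 and 16.6 CPM in WT replicates 1 to 3. The groups did not overlap, with OE replicate 1 far above the rest, and the log2 fold change was 1.12 ± 0.41 (adjusted p = 0.194) or 0.59 ± 0.17 without that library (adjusted p = 0.0618). Loxl2 had 85.7, 29.03, 24.9 and 21.1 CPM in OE against 16.3, 12.9 and 25.7 CPM in WT, a log2 fold change of 1.14 ± 0.53 (adjusted p = 0.296). Without OE replicate 1, Loxl2 stood at 0.44 ± 0.24 (adjusted p = 0.354), and its groups overlapped through WT replicate 3. Loxl1, which crosslinks elastin, stood at 0.52 ± 0.23 with all libraries (adjusted p = 0.260) and 0.34 ± 0.19 without OE replicate 1 (adjusted p = 0.357).

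Cyr61 showed the largest difference among the matrix genes with either set of libraries. It encodes a secreted matricellular protein of the CCN family that binds integrins, is an immediate-early gene, and is a known target of YAP and TEAD factors; the TEAD word in its promoter is shown above. The gene lies on chromosome 3 from 145646976 to 145649981, minus strand. Cyr61 had 352, 94.7, 64.9 and 116 CPM in OE replicates 1 to 4 against 22.7, 16.8 and 29.8 CPM in WT replicates 1 to 3. Every OE library exceeded every WT library, and OE replicate 1 was 3.84-fold over the mean of the other OE libraries. The log2 fold change was 2.77 ± 0.64 with all libraries (adjusted p = 0.0566, not called), and 1.99 ± 0.27 without OE replicate 1 (adjusted p = 0.00533). With all libraries as the start, the adjusted p of Cyr61 was 0.0405, 0.0316 and 0.0467 without OE replicates 2, 3 and 4, and 0.2, 0.231 and 0.14 without WT replicates 1, 2 and 3. Of 16 alternative fits that started from all libraries, 8 gave Cyr61 an adjusted p under 0.05. Among them, DESeq2 gave 8.82e-04, while dropping the filter gave 0.171 and the replicate block 0.126. With OE replicate 1 left out, 14 of 15 alternatives did so, and the replicate block gave 0.0617.

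The other CCN genes did not pass the test. Ctgf (now Ccn2), which encodes connective tissue growth factor, had 1069.7, 648, 505 and 1163 CPM in OE replicates 1 to 4 against 565, 682 and 486 CPM in WT replicates 1 to 3. OE replicates 1 and 4 were above every WT library, and OE replicates 2 and 3 lay within the WT range. Its log2 fold change was 0.55 ± 0.29 (adjusted p = 0.352), or 0.42 ± 0.31 without OE replicate 1 (adjusted p = 0.503). Wisp2 (now Ccn5) spread widely in both groups, with 33.8, 9.53, 4.35 and 13.03 CPM in OE against 7.39, 19.5 and 5.42 CPM in WT. Its log2 fold change was 0.53 ± 0.69 with all libraries and -0.21 ± 0.59 without OE replicate 1 (adjusted p = 0.718 and 0.884).

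Of the 14 elastic fibre genes, 0 passed the test with all libraries and 2, Fbn1 and Ltbp1, rose without OE replicate 1; over all genes 1.55% were called higher with all libraries and 3.74% without OE replicate 1. A positive log2 fold change was seen in 12 of 14 with all libraries, against 53.2% of all genes, and in 13 without OE replicate 1, against 51.8%. At an unadjusted p under 0.05, 5 of the 14 were higher, against 9.14% of all genes, and 0 lower, against 10%. Fbn1 encodes fibrillin-1, the main microfibril protein, and lies on chromosome 2 from 125300594 to 125507993, minus strand. It had 1261, 661, 734 and 613 CPM in OE replicates 1 to 4 against 348, 389.8 and 549.6 CPM in WT replicates 1 to 3. All OE libraries were above all WT libraries, with OE replicate 1 highest. Its log2 fold change was 0.93 ± 0.28 (adjusted p = 0.104), and 0.64 ± 0.17 without OE replicate 1 (adjusted p = 0.0404). That call was lost on leaving out also OE replicate 2 (0.101), OE replicate 3 (0.131), OE replicate 4 (0.0734), WT replicate 1 (0.123) or WT replicate 2 (0.134). The Y-linked covariate, carried here by WT replicate 2 alone, gave 0.13. Of the Fbn1 exon bases, 20.1% are shared with Gm9913 on the other strand.

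Ltbp1 encodes the latent TGF-beta binding protein that tethers the latent growth factor to microfibrils, and lies on chromosome 17 from 75005568 to 75392512, plus strand. It had 239, 366, 302 and 333 CPM in OE replicates 1 to 4 against 218, 262 and 213 CPM in WT replicates 1 to 3. Here OE replicate 1 was the lowest OE library and lay within the WT range, while OE replicates 2 to 4 were all above it. Its log2 fold change was 0.42 ± 0.15 (adjusted p = 0.171), and 0.53 ± 0.11 without OE replicate 1 (adjusted p = 0.0163), a call lost on leaving out also OE replicate 4 (0.0531) or WT replicate 1 (0.0718). Among its paralogs, Ltbp2 stood at 1.42 ± 0.53 with 21.7, 8.38, 4.87 and 6.87 CPM in OE against 3.7, 5.37 and 2.83 CPM in WT (adjusted p = 0.192), and at 0.78 ± 0.29 without OE replicate 1 (adjusted p = 0.147). Ltbp3 and Ltbp4 stood at 0.13 ± 0.11 and -0.12 ± 0.17 (adjusted p = 0.544 and 0.748), and without OE replicate 1 at 0.14 ± 0.11 and 0.00 ± 0.12 (adjusted p = 0.523 and 0.994).

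Eln, the gene of elastin itself, had 1704, 381, 440.5 and 300.3 CPM in OE replicates 1 to 4 against 109.9, 141 and 338 CPM in WT replicates 1 to 3. OE replicate 1 was 3.87-fold over the highest other library, and WT replicate 3 overlapped the remaining OE libraries. Eln stood at a log2 fold change of 1.85 ± 0.73 (adjusted p = 0.229), or 0.93 ± 0.47 without OE replicate 1 (adjusted p = 0.347). When WT replicate 3 was left out as well, the adjusted p of Eln was 8.75e-04. The fibulin genes differed among themselves: Fbln2 was highest in OE replicate 1 (504 CPM, against 230.0 to 275 CPM in the other OE libraries and 182 to 230.4 CPM in WT), whereas Fbln1 was lowest there (259 CPM, against 455 to 573 CPM in the other OE libraries and 379 to 451 CPM in WT). Mfap5, a microfibril-associated glycoprotein gene, had 219.7, 103, 67.5 and 83.4 CPM in OE against 68.3, 68.9 and 68.4 CPM in WT (0.79 ± 0.38, adjusted p = 0.305), and its log2 fold change was 0.31 ± 0.14 without OE replicate 1 (adjusted p = 0.225). The other 5 elastic fibre genes (Fbln5, Mfap4, Efemp1, Efemp2 and Emilin1) had log2 fold changes of -0.06 to 0.39, with adjusted p of 0.386 or more. Without OE replicate 1 these ranged from -0.37 (Efemp1) to 0.35 (Mfap4), with adjusted p of 0.384 to 0.723.

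**Figure D3:**
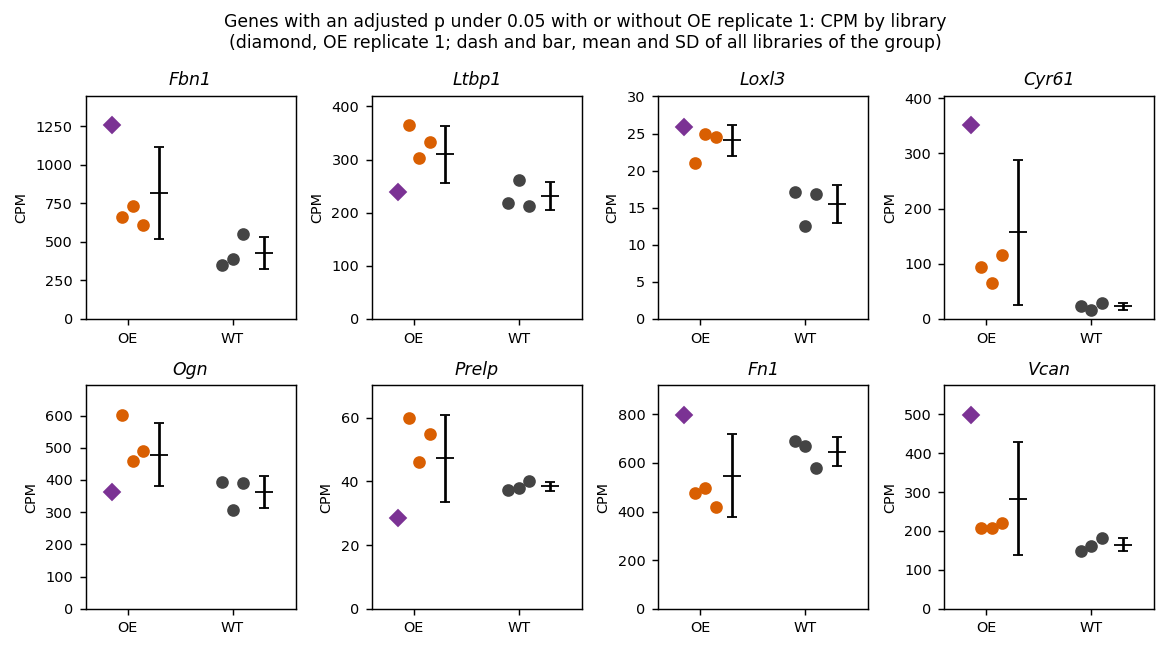
Each panel gives the CPM of one gene in every library, OE on the left and WT on the right, for the 8 genes with an adjusted p under 0.05 with or without OE replicate 1; the diamond is OE replicate 1, and the dash and bar are the mean and SD of all libraries of the group (n = 4 OE, n = 3 WT). OE replicate 1 is the top OE library for Fbn1, Loxl3, Cyr61, Vcan and Fn1 and the bottom one for Ltbp1, Ogn and Prelp.

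The 7 small leucine-rich proteoglycan genes all had positive log2 fold changes, with and without OE replicate 1, and 2 of them, Ogn and Prelp, rose without it. Over all genes, 53.2% were positive with the library and 51.8% without it, where 3.74% were called higher. Their median was 0.31 with all libraries and 0.47 without OE replicate 1, so here leaving the library out raised the median, unlike for the matrix genes as a whole. Prelp encodes an anchoring proteoglycan of basement membranes and lies on chromosome 1 from 133910304 to 133921414, minus strand. It had 28.5, 59.8, 46.1 and 54.8 CPM in OE replicates 1 to 4 against 37.3, 37.99 and 40.03 CPM in WT replicates 1 to 3. OE replicate 1 was the lowest of all 7 libraries, and the other OE libraries were above every WT library. Prelp had a log2 fold change of 0.30 ± 0.22 (adjusted p = 0.508), and 0.48 ± 0.11 without OE replicate 1 (adjusted p = 0.0224). That call was lost on leaving out also OE replicate 2 (0.0686), OE replicate 4 (0.0831), WT replicate 1 (0.083) or WT replicate 2 (0.0715). The Y-linked covariate, carried here by WT replicate 2 alone, gave 0.0647. Of its exon bases, 9.68% are shared with Gm15851 on the other strand.

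Ogn encodes osteoglycin (mimecan), which binds collagen fibrils, and lies on chromosome 13 from 49608046 to 49624501, plus strand. It had 364, 603, 459 and 489.8 CPM in OE replicates 1 to 4 against 395, 305 and 390.2 CPM in WT replicates 1 to 3. OE replicate 1 lay within the WT range and the other OE libraries were above it. Ogn had a log2 fold change of 0.40 ± 0.17 (adjusted p = 0.256), and 0.51 ± 0.14 without OE replicate 1 (adjusted p = 0.0473). The adjusted p on leaving out 1 library more was 0.113, 0.058 and 0.0926 for OE replicates 2, 3 and 4 and 0.0748, 0.156 and 0.0593 for WT replicates 1, 2 and 3, so each of them ended the call. The Y-linked covariate, carried here by WT replicate 2 alone, gave 0.147. Lum, lumican, was arranged alike, with 717, 1152, 933 and 853 CPM in OE against 700.5, 492 and 784 CPM in WT (0.47 ± 0.20, adjusted p = 0.242). On leaving out OE replicate 1, Lum stood at 0.57 ± 0.18 (adjusted p = 0.0898).

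Dcn, decorin, was the matrix gene with the most reads, at 2057, 3652, 2809.6 and 3067 CPM in OE replicates 1 to 4 against 2559, 2732 and 2569 CPM in WT replicates 1 to 3. OE replicate 1 was below all other libraries and OE replicates 2 to 4 above all WT libraries, and the log2 fold change was 0.14 ± 0.18 (adjusted p = 0.711) or 0.28 ± 0.14 without OE replicate 1 (adjusted p = 0.269). Aspn, asporin, was the 1 gene of this class with its highest level in OE replicate 1, at 155 CPM, against 62.3 to 83.9 CPM in the other OE libraries and 35.6 to 70.2 CPM in WT. Bgn and Fmod had log2 fold changes of 0.16 ± 0.12 and 0.31 ± 0.30 (adjusted p = 0.516 and 0.624), and of 0.13 ± 0.12 and 0.47 ± 0.28 without OE replicate 1 (adjusted p = 0.594 and 0.406).

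The large proteoglycan genes Vcan and Hspg2 had every OE library above every WT library, where 8.99% of all genes did so. Neither passed the test with all 7 libraries. Vcan encodes versican, a chondroitin sulfate proteoglycan of provisional matrix, and lies on chromosome 13 from 89655312 to 89742509, minus strand. It had 499, 207, 207 and 220.0 CPM in OE replicates 1 to 4 against 149, 161 and 182 CPM in WT replicates 1 to 3. Vcan had a log2 fold change of 0.79 ± 0.33 (adjusted p = 0.240), and 0.37 ± 0.10 without OE replicate 1 (adjusted p = 0.0436). Left out in addition, OE replicates 2, 3 and 4 gave 0.0633, 0.0899 and 0.145, and WT replicates 1 and 2 gave 0.179 and 0.129, so each ended the call. The Y-linked covariate, carried here by WT replicate 2 alone, gave 0.125. Hspg2, perlecan of basement membranes, had 979.9, 737, 932 and 780.4 CPM in OE against 561, 633 and 662 CPM in WT. Its log2 fold change was 0.47 ± 0.14 (adjusted p = 0.0894), or 0.40 ± 0.12 without OE replicate 1 (adjusted p = 0.0791). The nidogen genes, whose products link laminin to collagen IV, stood at 0.26 ± 0.14 for Nid1 and -0.14 ± 0.23 for Nid2 (adjusted p = 0.352 and 0.789). With OE replicate 1 left out, they stood at 0.18 ± 0.12 for Nid1 and -0.36 ± 0.16 for Nid2 (adjusted p = 0.445 and 0.233).

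Fn1 was the 1 matrix gene that fell, and it did so without OE replicate 1. Fibronectin is the adhesive glycoprotein of provisional matrix on which other components assemble, and its gene lies on chromosome 1 from 71585520 to 71653200, minus strand. Fn1 had 799, 478, 496 and 417 CPM in OE replicates 1 to 4 against 691, 671 and 578 CPM in WT replicates 1 to 3. OE replicate 1 was the highest library and OE replicates 2 to 4 were the 3 lowest. The log2 fold change was -0.24 ± 0.21 (adjusted p = 0.582), and -0.48 ± 0.12 without OE replicate 1 (adjusted p = 0.0287). The call ended without OE replicate 3 (0.0537), OE replicate 4 (0.107), WT replicate 1 (0.111) or WT replicate 2 (0.09) as well, and with library totals only (0.0901). The Y-linked covariate, carried here by WT replicate 2 alone, gave 0.0907.

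No thrombospondin gene passed the edgeR test with or without OE replicate 1. Thbs1, whose product activates latent TGF-beta, had 235, 30.6, 14.3 and 33.3 CPM in OE replicates 1 to 4 against 15.7, 11.9 and 9.11 CPM in WT replicates 1 to 3. OE replicate 1 was 7.06-fold over the highest other library, and OE replicate 3 overlapped WT. Thbs1 had a log2 fold change of 2.69 ± 1.03 (adjusted p = 0.214), and 1.10 ± 0.33 without OE replicate 1 (adjusted p = 0.1002). Without that library Thbs1 was called higher by DESeq2 (adjusted p = 0.00381), and by edgeR on leaving out OE replicate 3 as well (adjusted p = 0.00529). Thbs3 had 43.98, 29.03, 28.2 and 30.4 CPM in OE against 21.6, 16.8 and 26.1 CPM in WT, without overlap (0.61 ± 0.20, adjusted p = 0.134, and 0.44 ± 0.15, adjusted p = 0.117, without OE replicate 1). Thbs2 went the other way in OE replicate 1, at 63.8 CPM, against 107 to 149 CPM in the other OE libraries and 67.2 to 135 CPM in WT (0.17 ± 0.32, adjusted p = 0.817, and 0.37 ± 0.25, adjusted p = 0.474, without OE replicate 1). Comp, a pentameric thrombospondin known from cartilage and tendon, had 36.7, 44.6, 53.6 and 45.4 CPM in OE against 82.6, 65.4 and 42.98 CPM in WT (-0.50 ± 0.21, adjusted p = 0.241, and -0.42 ± 0.22, adjusted p = 0.333, without OE replicate 1). When WT replicate 3 was left out beside OE replicate 1, edgeR called Thbs3 higher (adjusted p = 0.0292) and Comp lower. With library totals only and without OE replicate 1, edgeR called Thbs3 higher (adjusted p = 0.0494). Thbs4 was near the floor, at 1.16 to 3.83 CPM in OE and 1.6 to 2.15 CPM in WT.

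Periostin and tenascin C, matricellular proteins known from injured and remodelling hearts, were high in OE replicate 1 alone. Postn had 599, 89.97, 75.2 and 46.7 CPM in OE replicates 1 to 4 against 97.7, 66.1 and 82.4 CPM in WT replicates 1 to 3. Its log2 fold change was 1.31 ± 0.90 (adjusted p = 0.477), and it turned to -0.22 ± 0.25 without OE replicate 1 (adjusted p = 0.684). Tnc had 19.9, 2.74, 2.61 and 2.09 CPM in OE against 1.31, 1.69 and 2.22 CPM in WT, with log2 fold changes of 1.99 ± 0.90 and, without OE replicate 1, 0.50 ± 0.33 (adjusted p = 0.279 and 0.436). Sparc (osteonectin), which binds collagen, had 2507, 1222, 1418 and 1102 CPM in OE against 747, 727 and 1126 CPM in WT (0.85 ± 0.30, adjusted p = 0.176). WT replicate 3 lay above the lowest OE library, and without OE replicate 1 Sparc stood at 0.53 ± 0.18 (adjusted p = 0.114). Tnxb, tenascin X, had 232, 387, 338 and 329.6 CPM in OE against 267, 289.8 and 265 CPM in WT (0.23 ± 0.16, adjusted p = 0.470). On leaving out OE replicate 1, Tnxb stood at 0.36 ± 0.10 (adjusted p = 0.0515). Mgp, matrix Gla protein, an inhibitor of calcification, had 826, 1000.4, 826 and 891 CPM in OE against 855, 832 and 768 CPM in WT (0.11 ± 0.11, adjusted p = 0.631, and 0.15 ± 0.11, adjusted p = 0.520, without OE replicate 1). Sparcl1 and Cilp stood at 0.26 ± 0.18 and 0.83 ± 0.48 (adjusted p = 0.460 and 0.396), and without OE replicate 1 at 0.34 ± 0.16 and 0.52 ± 0.51 (adjusted p = 0.265 and 0.631).

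OE replicate 1 stood above the other OE libraries in most matrix genes and below them in others. It was the highest of 7 libraries in 26 of the 45 genes, against 26.4% of all genes, and the lowest in 7, against 24.4%. It was at least 2-fold over the mean of OE replicates 2 to 4 in 13 genes, against 4.19% of all genes, and at most 0.5 of that mean in 1 gene, Thbs2, against 4.48%. The largest ratios to that mean were 9.02 for Thbs1, 8.49 for Postn, 8.01 for Tnc, 4.56 for Eln and 3.84 for Cyr61. By class, the median log2 ratio was 1.91 for the CCN genes, 1.03 for the crosslinkers, 0.93 for the other matrix genes, 0.68 for the elastic fibre genes, 0.27 for the basement membrane genes, -0.39 for the thrombospondins and -0.51 for the small leucine-rich proteoglycans. Members of a class went both ways, such as Eln (2.19) and Fbln1 (-0.96) among the elastic fibre genes and Aspn (1.13) and Prelp (-0.91) among the small leucine-rich proteoglycans, and no difference between classes was tested. WT replicate 2, the other library with high Y-linked transcripts, had 11.9 CPM of Thbs1, 66.1 CPM of Postn, 1.69 CPM of Tnc and 141 CPM of Eln, within or near the range of the other WT libraries. Among the OE libraries only OE replicate 1 had high Y-linked transcripts, so sex and other traits of that library cannot be told apart. OE replicate 1 also had the least Zfpm2 of the OE libraries, at 0.575 of the mean of the others. The part of these differences in the comparison of groups was not tested beyond leaving the library out.

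**Figure D4:**
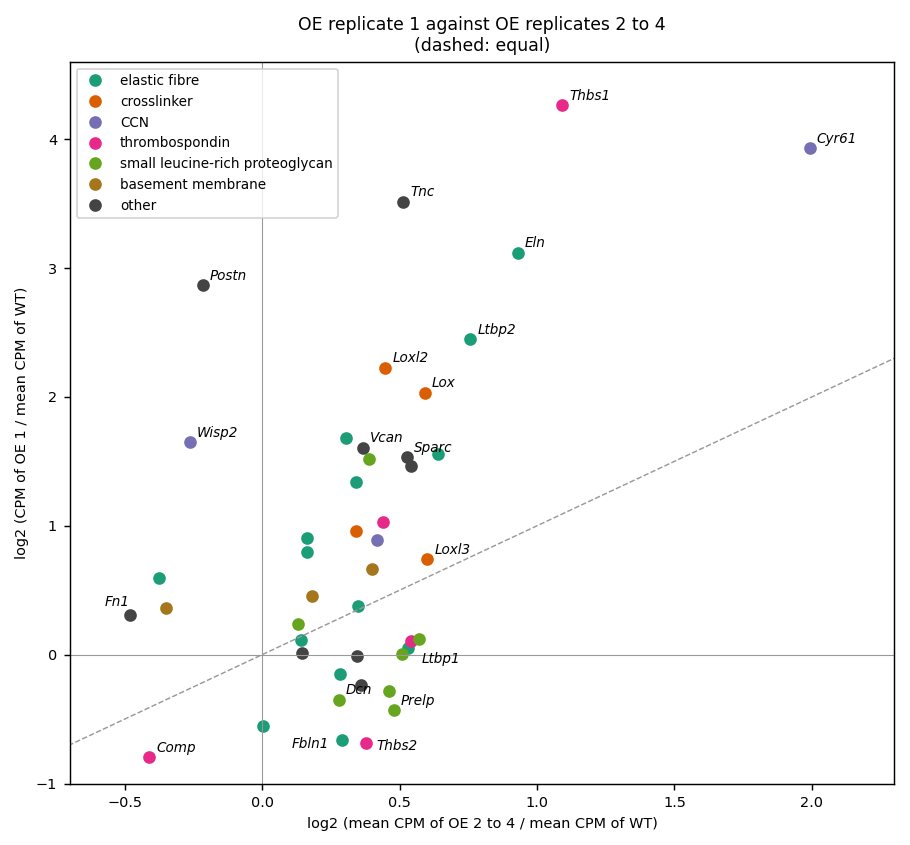
Each point is one of the 45 tested matrix genes, coloured by class; the horizontal axis is log2 of the mean CPM of OE replicates 2 to 4 over the mean CPM of WT, the vertical axis log2 of the CPM of OE replicate 1 over the same WT mean, and the dashed line marks equal values. Thbs1, Tnc, Postn and Eln lie far above the line, and Prelp, Dcn, Fbln1 and Thbs2 lie below it.

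Some cell type markers also differed between OE and WT. In bulk tissue a change in the number of cells of a type and a change in RNA per cell cannot be told apart. The 10 fibroblast markers summed to 12627 to 16141 CPM in OE and 8828 to 13628 CPM in WT, and 0 of 10 passed the test with edgeR, with or without OE replicate 1. Within that list OE replicate 1 was highest for Col3a1 (9520.4 CPM, against 3491 to 5636 CPM in the other OE libraries) and lowest of all libraries for Gsn (2179 CPM, against 5586 to 6344 CPM), Pdgfra (199 CPM, against 319 to 372 CPM) and Scara5 (34.2 CPM, against 61.6 to 89.8 CPM). The 7 activated fibroblast markers summed to 1267 CPM in OE replicate 1, 781 to 841 CPM in the other OE libraries and 56.6 to 91.9 CPM in WT. Acta2 made up 1035 CPM of this in OE replicate 1, 681 to 761 CPM in the other OE libraries and 15.3 to 36.2 CPM in WT, so the OE sums mostly give this 1 gene. Of the 6 tested, 2 rose with all libraries, Acta2 and Col12a1. Epicardial and mesothelial markers, of which 0 of 6 passed the test, summed to 811 CPM in OE replicate 1, 430.4 to 569 CPM in the other OE libraries and 421 to 480.3 CPM in WT. Smooth muscle and pericyte markers summed to 728 to 927 CPM in OE and 664 to 742 CPM in WT (2 of 10 higher). Atrial cardiomyocyte markers, which include Myl7, Myl4 and Nppa, summed to 89799 to 129127 CPM in OE and 142391 to 167284 CPM in WT (2 of 8 lower). Over all genes, 1.55% were called higher and 3.29% lower with all libraries, and 3.74% and 4.99% without OE replicate 1. Without OE replicate 1, 3 of 6 activated fibroblast markers and 3 of 10 smooth muscle and pericyte markers were higher. Of the 8 cardiomyocyte markers, 2 were lower there. The part of these markers in the differences of the matrix genes was not tested.

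Further marker lists cover other cells that left atrial tissue can hold or carry along. Cartilage markers summed to 6.33 to 9.82 CPM in OE and 4.8 to 8.25 CPM in WT, and lung epithelial markers to 1.22 to 3.55 CPM in OE and 1.23 to 3.67 CPM in WT, with Sftpc at 0 in every library. Of the 5 erythroid markers, 4 haemoglobin genes were listed at 0 and Alas2 had 221, 55.7, 105 and 25.8 CPM in OE replicates 1 to 4 and 35.9, 49.1 and 37.9 CPM in WT replicates 1 to 3. The 0 values cannot show that blood cells were absent, since reads aligned to several places were not counted. Endothelial markers summed to 1969 to 2336 CPM in OE and 2342 to 2540.04 CPM in WT. Immune markers summed to 659 to 912 CPM in OE and 537 to 737 CPM in WT. Schwann and neuronal markers summed to 15.7 to 19.5 CPM in OE and 10.7 to 16.3 CPM in WT. Adipocyte markers summed to 1.22 to 64.5 CPM in OE and 7.91 to 21.8 CPM in WT. With all libraries, 0 genes of these 4 lists passed the test. Without OE replicate 1, 1 of 8 endothelial markers was lower, where 4.99% of all genes were.

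Other genes of the matrix pathway, taken from 6 lists fixed by name, included stronger single changes. Over these lists 9 of 164 genes tested rose and 4 fell with all libraries, where 1.55% of all genes were called higher and 3.29% lower. With OE replicate 1 left out, 14 of 162 rose and 7 fell, where 3.74% and 4.99% of all genes did. All 13 genes called with all libraries were called in the same direction without OE replicate 1, with adjusted p of 3.66e-05 to 0.0232. The shares of all genes apply to each list that follows. Among other matrix glycoproteins 2 of 36 tested rose and 0 fell (median 0.21). Fbn2, fibrillin-2, known mainly from developing tissue, had 91.9, 38.4, 91.9 and 53.6 CPM in OE replicates 1 to 4 against 6.68, 4.66 and 11.2 CPM in WT replicates 1 to 3 (3.18 ± 0.42, adjusted p = 0.00460), with no overlap between groups. Matn2, matrilin-2, rose by 0.71 ± 0.15 (adjusted p = 0.0299). Among other proteoglycans 3 of 20 rose and 0 fell (median 0.31): Cspg4 (1.34 ± 0.20, adjusted p = 0.00592), Sdc4, syndecan-4 (1.11 ± 0.18, adjusted p = 0.00917), and Ncan, neurocan of brain matrix, which had 15.1, 4.19, 4.17 and 12.3 CPM in OE and 2, 0 and 1 counts in WT (adjusted p = 0.00539).

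Of 41 glycosaminoglycan synthesis genes tested, 1 rose and 1 fell (median 0.21). Sulf2, a sulfatase that trims heparan sulfate, had 221, 266, 294 and 280.4 CPM in OE against 105, 118 and 127 CPM in WT (1.18 ± 0.12, adjusted p = 8.94e-04). Chst11, a chondroitin sulfotransferase, fell by 0.96 on the log2 scale (SE 0.19, adjusted p = 0.0236). Of 25 collagen processing genes, Bmp1, the procollagen C-proteinase, rose (0.49 ± 0.10, adjusted p = 0.0256) and Adamts3, a procollagen N-proteinase, fell (-0.80 ± 0.17, adjusted p = 0.0327), with a median of 0.25. Of 25 TGF-beta genes 0 rose and 1 fell (median 0.08), the pseudoreceptor Bambi (-0.61 ± 0.14, adjusted p = 0.0372). Of 20 YAP and TEAD genes and common targets, 2 rose and 1 fell (median 0.07): Arhgef17 (0.75 ± 0.15, adjusted p = 0.0246) and Amotl2 (0.44 ± 0.10, adjusted p = 0.0406) rose, while Ankrd1, a cardiac ankyrin repeat gene, had 1441, 614, 432 and 622 CPM in OE against 2905, 3730.5 and 2477 CPM in WT (-1.97 ± 0.39, adjusted p = 0.0288). Without OE replicate 1, 3 of these 20 genes were higher and 1 was lower. Cyr61 and Ankrd1, both known as targets of these factors, stood on opposite sides of WT. The part of these factors in the differences was not tested. The count of genes called higher in these lists was 5 without OE replicate 3, WT replicate 1 or WT replicate 2, and that of genes called lower 1 without OE replicate 2 or WT replicate 3, 2 without OE replicate 3, and 0 without OE replicate 4, WT replicate 1 or WT replicate 2.

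Levels between genes were compared per length, as CPM per kilobase of annotated exon (GENCODE M21, mm10), which ignores which isoforms are used. The highest means were those of Mgp (746 in OE and 689 in WT), Dcn (496 and 449), Sparc (412 and 229), Lum (373 and 269), Ctgf (296 and 202) and Sparcl1 (279 and 232), each pair being OE and WT. Cyr61 stood at 77.7 in OE and 11.4 in WT on this scale, and Loxl3 at 5.24 and 3.37. The lowest were Spp1 (0.443 and 0.184), Tnc (0.879 and 0.224), Ltbp2 (1.28 and 0.485) and Thbs4 (0.769 and 0.566).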

How the data were processed

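The authors deposited one table of raw read counts per gene symbol for 7 libraries (4 OE, 3 WT). The tools STAR, HTSeq 0.6.0 and DESeq2 and the build mm10 are named in the submitters' processing notes, without roles; the strand setting is not given in the sources used here. The labels call the libraries polyA mRNA but the protocol describes a ribosomal RNA depletion step. Gene rows took 27.8% to 33.1% of each library's reads; those without a feature (23.4% to 30.5%), aligned to several places (37.1% to 43.4%) or ambiguous (0.101% to 0.254%) entered neither the library sizes nor the tests.

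The filter was filterByExpr by group, with a minimum count of 10 and a minimum total of 15. After TMM scaling, groups were compared by the robust quasi-likelihood F test of edgeR 4.0.16 in R 4.3.3, two-sided and with no covariate, adjusted over all 13295 genes (13191 without OE replicate 1). The standard error was taken as |log2 fold change| divided by the square root of F. CPM uses TMM-scaled totals. Alternatives were RLE, upper-quartile and no scaling, dropping the filter or asking for 1 CPM or more in 3 libraries, limma-voom (limma 3.58.1), DESeq2 1.42.0, a Y-linked covariate, a replicate block and each library left out. The tests were tried on simulated data first. Genes named with every library's value are those with an adjusted p under 0.05 with or without OE replicate 1, the 8 smallest p, the 5 largest changes, the 3 highest levels and the 3 in which OE replicate 1 stood out most; others were added by class after their values were seen. The 46 genes, the lists and the split by OE replicate 1 were chosen with earlier results of these data known. The labels do not say whether libraries came from different animals; p-values then reflect only library-to-library spread, part of which may be technical. Gene positions came from GENCODE M21 and promoters from RefSeq (GRCm38.p6).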

Additional observations from a re-analysis of the deposited data

Results flagged for a closer look

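In 9 of the 46 genes, OE replicate 1 was so far above the other 3 OE libraries that the gap exceeded Dixon's 95% critical value for 4 samples, and no gene was set apart in this way by another OE library or by a low value. By chance about 1 in 20 groups is set apart. Among all 13295 genes tested, the same rule set OE replicate 1 apart above the others in 4.14% and below them in 1.47%, and another OE library in 2.88%. The levels in OE replicate 1 were 1704 CPM for Eln, 504 CPM for Fbln2, 63.5 CPM for Lox, 85.7 CPM for Loxl2, 235 CPM for Thbs1, 43.98 CPM for Thbs3, 599 CPM for Postn, 19.9 CPM for Tnc and 499 CPM for Vcan. The ratio of gap to range was highest for Tnc (0.963) and Vcan (0.955) and lowest for Fbln2 (0.836). The row of reads that fell on more than 1 gene, which no comparison uses, held 0.254% of the reads of OE replicate 1, 0.107% to 0.168% in the other OE libraries and 0.101% to 0.12% in the WT libraries.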

How the results depend on the processing

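Among the alternatives run, Zfpm2 stayed called and the median log2 fold change of the matrix genes stayed positive. Leaving out 1 library gave 75 to 493 genes higher and 181 to 658 lower over all genes, 0 to 7 and 0 to 1 among the matrix genes, 5 to 14 and 0 to 7 in the pathway lists, a median of 0.37 to 0.48 and Zfpm2 at 2.72 to 2.99. Leaving out a further library beside OE replicate 1 gave 284 to 537 and 411 to 632, 1 to 13 and 0 to 2, 8 to 20 and 4 to 10, a median of 0.29 to 0.45 and Zfpm2 at 2.93 to 3.05. Library totals only gave 444 genes higher over all genes, 3 matrix genes higher, and 14 higher and 2 lower in the lists; without OE replicate 1 they gave 917, 13 (with 0 lower) and 24 higher in the lists. DESeq2 gave 460 higher and 681 lower, 6 matrix genes higher and 18 list genes higher, and 12 matrix genes higher without OE replicate 1. Limma-voom called 2 matrix genes higher. The Y-linked covariate called 4 matrix genes higher; without OE replicate 1 it gave 295 higher and 410 lower over all genes, 2 and 0 matrix genes and 4 list genes lower, and there it is carried by WT replicate 2 alone.

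Replicate numbers are shared between groups. Deviations from the group means correlated at 0.0631, 0.026 and 0.0654 for the same numbers 1, 2 and 3. Between different numbers they correlated at -0.104 to 0.0614. With so few libraries, these values cannot show whether the numbers pair the samples. With the replicate block, 129 genes were higher and 253 lower over all genes, 0 matrix genes were higher and 2 list genes lower; without OE replicate 1 the block gave 222 and 297, 1 and 0 matrix genes (Thbs1), and 9 and 3 list genes. Overexpression replicate 4 has no WT partner and adds nothing there.

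Postn reversed to -0.22 without OE replicate 1, and from there to 0.16 with the replicate block and to 0.00687 without OE replicate 4; the cause was not tested. On leaving out 1 library, Postn ranged over -0.22 to 1.63, and over -0.44 to 0.00687 on leaving out 1 more beside OE replicate 1. Of 288 values of single named genes with all libraries, 261 kept their direction and side of the threshold, 19 passed it newly and 7 lost it; without OE replicate 1 these were 211, 12 and 45 of 270. Spp1, with at most 10 counts in a library, was removed by the filter on low counts and entered only the fits without it.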
